A study of Homo sapiens with 9 samples.

Results

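The genes described here are the expressed members of the ZNF zinc-finger gene family in cells labelled NB4, a human leukaemia line. Members were chosen by symbol, ZNF followed by a number, without antisense, readthrough or pseudogene rows, and then selected on their measured level: a mean of at least 3 TPM over the 3 DMSO libraries. TPM is a transcript abundance scaled for length and for the library total. Of 26830 genes in the tables, 503 were ZNF genes by this naming and 259 of these passed the level threshold. Cells had been exposed for 48 h to FB23-2, to FB23 or to DMSO, the solvent, with 3 poly(A) RNA-seq libraries per group and 9 in all. No agent, allele or treatment beyond the compound or solvent is named in the labels, the doses are not given there, and the labels call the cells acute monocytic leukaemia, whereas NB4 is known as an acute promyelocytic leukaemia line. The series title places the work under FTO inhibition; FTO is a demethylase of adenosine in RNA. Nothing in the labels says whether the 3 libraries of a group came from separate cultures, so p-values measure only the spread between these libraries, which may be technical.

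Most ZNF genes encode C2H2 zinc-finger proteins, in which each finger is a short fold held by a zinc ion and contacts a few bases of DNA. Many carry a KRAB box at their start, which binds the co-repressor TRIM28 and through it the histone methyltransferase SETDB1 and heterochromatin proteins, and a large share of these proteins bind transposable elements. The genes lie in tandem clusters, above all on chromosome 19. Other members of the ZNF naming series have no KRAB box and act as activators, as parts of chromatin complexes or on RNA and ribosomes.

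The libraries held 12360291 to 38410750 expected counts. FB23-2 libraries stood apart from the other 6: their TMM scaling factors were 1.05 to 1.08, against 0.954 to 0.988 for FB23 and DMSO libraries, and the 10 most abundant genes took 6.95% to 7.32% of their counts, against 5.54% to 5.83%. All 6 genes fixed as erythroid markers were detected in every group, and 3 of the 6 myeloid markers (MPO, CTSG and ELANE) had 0 or 1 counts summed over each group. PRTN3 and AZU1 were also too low to be tested. PRTN3 had 9, 6 and 16 counts summed over FB23-2, FB23 and DMSO libraries, and AZU1 had 22, 11 and 10. Of the myeloid list only CD33 was tested. The globin HBG2 averaged 1162 TPM with FB23-2, 9234 TPM with FB23 and 8103 TPM with DMSO, and the erythroid factor KLF1 averaged 23.8, 256 and 286 TPM in the same order. CD33 averaged 44.4 TPM with FB23-2, 38.8 TPM with FB23 and 44.0 TPM with DMSO. Among epithelial markers KRT8 averaged 1373 TPM with FB23-2, 296.5 TPM with FB23 and 227 TPM with DMSO, while EPCAM averaged 25.5, 54.2 and 73.5 TPM. The globins HBZ and HBA1 averaged 7165 and 4842 TPM in DMSO libraries. Such erythroid levels beside near-absent MPO, CTSG and ELANE go against the leukaemia types named above, although CD33 was present. The identity of the cells was not tested, so NB4 is used here only as their label. The part of these marker changes in the ZNF results was not tested.

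In DMSO libraries the members were mostly transcripts of low to middling abundance. Their median was 10.1 TPM with quartiles at 5.27 and 17.7 TPM, 128 of the 259 lay under 10 TPM, and 15 reached 50 TPM. The median of all 13365 genes tested was 13.2 TPM. The most abundant member was ZNF593, the human counterpart of the yeast ribosome export factor Bud20, at 325.5, 317.9 and 309.5 TPM in the DMSO libraries. ZNF207, which binds the spindle checkpoint protein BUB3, followed at 249.3, 255.6 and 255.0 TPM, and ZNF511 and ZNF428 averaged 122 and 103 TPM. The libraries of the group were close to each other, with a median coefficient of variation of 5.89% over members. Just inside the threshold stood ZNF564 at a mean of 3.01 TPM, ZNF311 at 3.03 TPM and ZNF136 at 3.04 TPM, and just outside it ZNF211 at 2.98 TPM, ZNF671 at 2.96 TPM and ZNF81 at 2.93 TPM.

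Features that the rule did not use set the members out in classes. A script counted C2H2 fingers in the translated coding sequence of each member by the spacing of its cysteines and histidines. The median was 10 fingers, the highest count was 31, and 2 members (ZNF330 and ZNF839) had no finger that matched the spacing. A KRAB box was found in 108 members by a strict pattern and in 127 by a looser one. Members with the strict KRAB match had a median of 11 fingers, against 8 for those without it. Chromosome 19 held 100 of the 259 members, among them 61 of the 108 with the strict KRAB match.

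Against DMSO, FB23-2 changed most expressed ZNF genes in either direction by modest amounts. In a quasi-likelihood test with edgeR across all 13365 genes, 102 members were higher and 103 were lower at an adjusted p under 0.05, and 54 were not called. Of all tested genes 82.6% were called in this comparison, 41.3% higher and 41.3% lower, beside 79.2% of members. At the members' own threshold the background was not even: 39.4% of members were higher and 39.8% lower, against 33.95% higher and 50.99% lower of the 10094 tested genes at 3 TPM or more in DMSO libraries, whose median log2 fold change was -0.19. No test was made of this difference, and the median level of members was 10.1 TPM, against 22.1 TPM for those genes. Because the DMSO libraries also set the threshold of the rule, the counts against DMSO describe the members and are no independent test of them. Sizes were smaller than those of all genes: the median absolute log2 fold change was 0.46 for members, 0.62 for tested genes at 3 TPM or more and 0.73 for all tested genes. At least 1 on the log2 scale was reached by 15 members that were higher and 27 that were lower, or 5.79% and 10.4% of members, against 10.68% and 19.06% of tested genes at 3 TPM or more and 20.7% and 16.1% of all tested genes. The CPM values of the groups did not overlap for 205 members, beside 84.2% of all tested genes. In bulk RNA such a difference in level can come from fewer cells of a type or from less RNA per cell, which cannot be told apart here.

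The balance between higher and lower depended on the scaling of the libraries. With upper-quartile factors the split over members was 126 higher and 82 lower, with library totals alone 121 and 86, and with limma on log2(TPM + 1) 133 and 71. The median of all tested genes moved by the same steps, to 0.18 under upper-quartile scaling and 0.16 under library totals, against 0.01 under TMM. Directions of single genes below are on the TMM scale, and those that turn under another scaling are named as such.

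**Figure D1:**
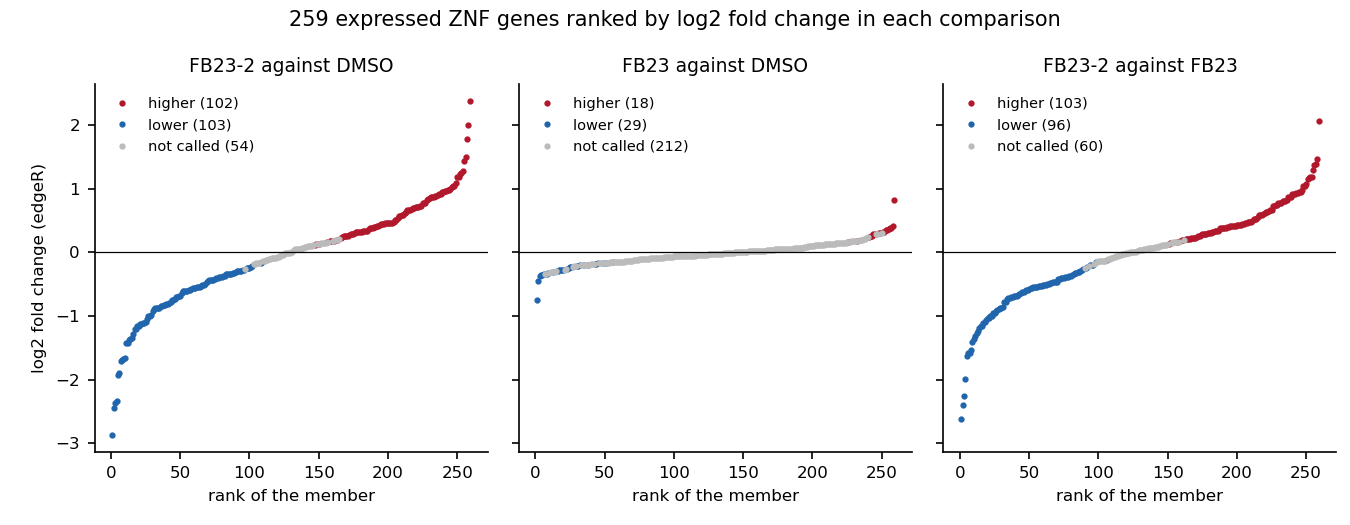
Each point is 1 of the 259 expressed ZNF genes, ranked by its log2 fold change (vertical axis) within each of 3 comparisons, with colours for the edgeR call at an adjusted p under 0.05. FB23-2 against DMSO spans -2.87 to 2.39, whereas FB23 against DMSO spans -0.74 to 0.82.

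ZNF607, a KRAB zinc-finger gene of chromosome 19 with 18 fingers, fell furthest with FB23-2. It had 10.1, 10.1 and 6.93 CPM (counts scaled to the TMM-adjusted library total) in FB23-2 libraries, 61.2, 54.1 and 54.2 CPM in FB23 libraries and 72.0, 64.3 and 64.6 CPM in DMSO libraries. All FB23-2 values lay below all others by a wide margin, with a log2 fold change of -2.87 ± 0.10 (SE, adjusted p 2.3e-14) against DMSO. The next falls were those of ZNF485 and ZNF239, at -2.45 ± 0.16 and -2.36 ± 0.11 on the log2 scale. Together with ZNF32 they are neighbours on chromosome 10. ZNF485 stood at 1.66, 1.29 and 1.09 CPM in FB23-2 libraries, against 8.11, 7.13 and 7.59 CPM in DMSO libraries. ZNF239 stood at 2.86, 3.21 and 2.80 CPM in FB23-2 libraries, against 15.7, 16.2 and 13.6 CPM in DMSO libraries. Of the trio ZNF32 changed least, to 4.59 ± 0.40 CPM with FB23-2, against 12.01 ± 0.19 CPM with DMSO (SD, n = 3 each), and none of the 3 was called with FB23.

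ZNF783, on chromosome 7, was nearly identical among the FB23-2 libraries at 6.02, 6.01 and 6.08 CPM, against 31.5, 30.02 and 30.1 CPM in DMSO libraries, and its log2 fold change was -2.34 ± 0.08. ZNF689 had 10.5, 10.6 and 8.02 CPM in FB23-2 libraries, against 38.8, 37.3 and 35.5 CPM in DMSO libraries. ZNF296, known in mouse as a factor of pluripotent cells, had 1.97, 2.69 and 3.28 CPM in FB23-2 libraries, against 11.3, 7.80 and 9.87 CPM in DMSO libraries. These groups did not overlap for any of the 3 genes, although the DMSO libraries of ZNF296 were spread more widely than those of the others. ZNF121 fell to 9.49 ± 0.64 CPM with FB23-2, against 30.6 ± 2.64 CPM with DMSO. ZNF202, a KRAB gene known as a repressor of lipid genes, fell to 15.4 ± 0.48 CPM, against 48.6 ± 4.71 CPM, and ZNF639 fell to 21.2 ± 1.34 CPM, against 67.3 ± 2.40 CPM (SD, n = 3 each).

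The rises were led by ZNF117, at 141.4, 141.5 and 161.3 CPM in FB23-2 libraries, 41.1, 36.9 and 30.05 CPM in FB23 libraries and 26.6, 28.4 and 29.7 CPM in DMSO libraries, with a log2 fold change of 2.39 ± 0.09 against DMSO (adjusted p 5.9e-14). ZNF117 lies beside the endogenous retroviral gene ERV3-1, shares sequence with it (1.98% of its 50-base words occur in ERV3-1 and 3.69% in any other gene), and ERV3-1 moved by the same amount, 2.41 ± 0.08. Which of the pair the reads came from was not tested. Of the 81 members named by rule, 14 share 5% or more of such words with other annotated genes, and how reads were split among them was not tested. Of those described here or in the closing section the shares were 85.5% for ZNF410, 84.7% for ZNF564, 41.7% for ZNF395 (with FBXO16), 23.5% for ZNF511 and 20.15% for ZNF587. They were 15.9% for ZNF600, 14.6% for ZNF277, 10.8% for ZNF497, 10.3% for ZNF10, 10.2% for ZNF548, 9.15% for ZNF607 and 9.12% for ZNF695. ZNF837 was the member with the clearest steps: it had 14.8, 14.9 and 14.7 CPM in FB23-2 libraries, 5.90, 5.94 and 7.39 CPM in FB23 libraries and 3.72, 3.54 and 3.82 CPM in DMSO libraries. No 2 of its groups overlapped.

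ZNF160, with 20 fingers and a KRAB box, had 68.8, 59.6 and 68.3 CPM in FB23-2 libraries, against 19.1, 18.97 and 19.3 CPM in DMSO libraries. ZNF646, a protein with 30 fingers, had 171.2, 167.6 and 158.8 CPM in FB23-2 libraries, against 70.0, 67.7 and 66.2 CPM in DMSO libraries. In both genes every FB23-2 library lay above every DMSO library, and the FB23 libraries lay between them. ZNF311 rose to 12.7 ± 1.21 CPM with FB23-2, against 4.47 ± 0.26 CPM with DMSO, and ZNF548 to 28.3 ± 1.199 CPM, against 10.4 ± 0.11 CPM. ZNF600 rose by 1.25 ± 0.09 and ZNF497 by 1.24 ± 0.10 on the log2 scale. ZNF311 was 1 of the 3 members just inside the threshold, so its choice and its rise share the DMSO values.

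**Figure D2:**
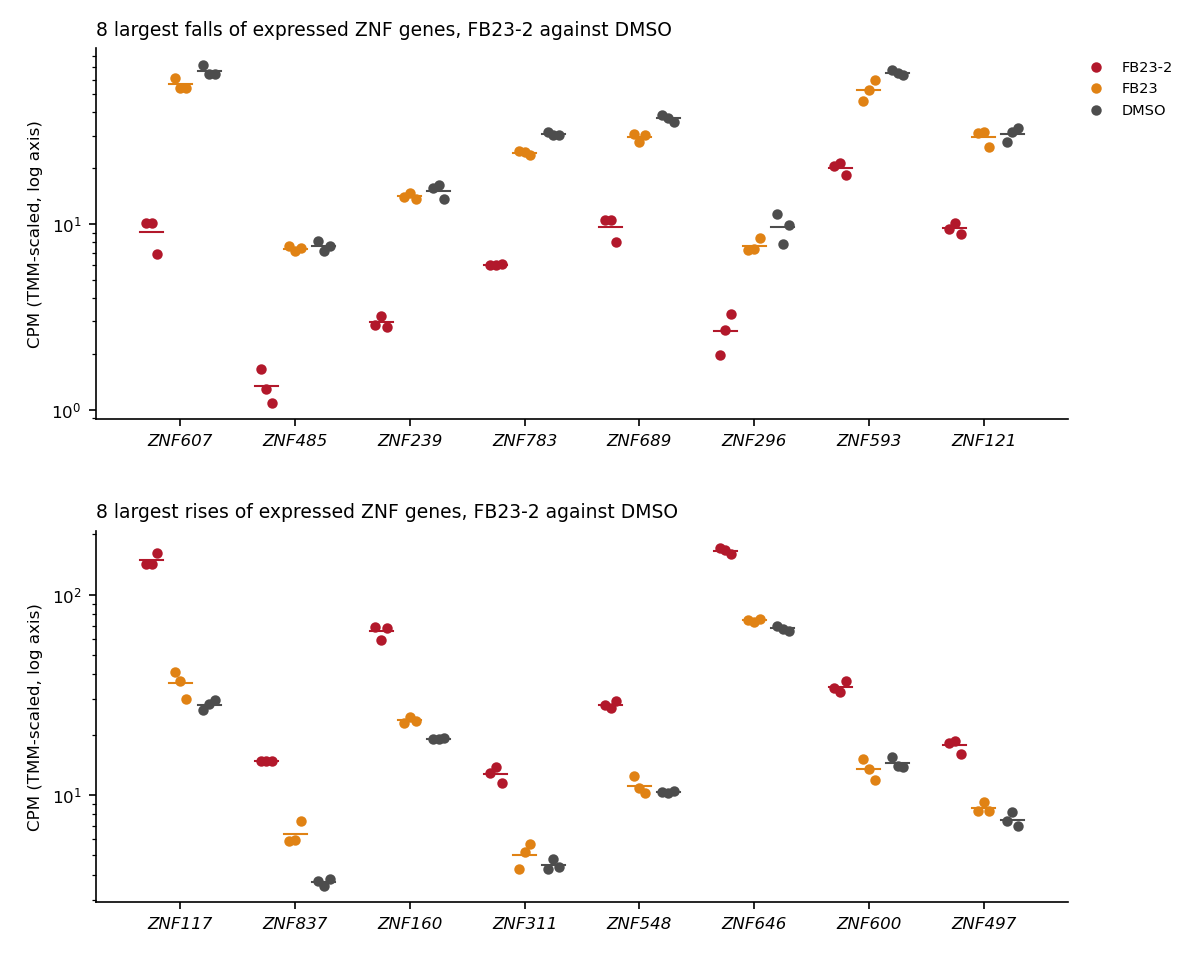
Points are single libraries and short lines group means, in CPM on a log axis, for the 8 members with the largest fall (top) and the 8 with the largest rise (bottom) with FB23-2 against DMSO. FB23 libraries sit near DMSO libraries for most of the 16 genes, and ZNF837 shows 3 separate levels.

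Promoters of 5 falling members are shown because a window of each held 1 or more of 3 short motifs of known regulators. Only windows with a match are printed, and not all of those. The windows of ZNF607, ZNF485, ZNF202, ZNF639 and ZNF593, which also fell, held none of the 3. The ZNF689 window at chr16:30609829-30610078 held none either, while its overlapping window at chr16:30610390-30610639 held ACTACAA. Among other named members, windows of ZNF207, ZNF451 and ZNF587 and of ZNF277, which rose, also held a match and are not printed. The windows are from RefSeq (GRCh38.p14), the 250 bases before the annotated start, 5′ to 3′ on the gene's strand, and 228 of the 259 members matched at least 1 window in the table, with 285 windows in all. Capitals mark a motif on either strand: CACGTG, the E-box bound by MYC and MAX; ACTACAA, part of the sequence bound by ZNF143; and AAGATGG, the core bound by YY1.
ZNF783, chr7:149261946-149262195, plus strand, CACGTG at -10 to -5: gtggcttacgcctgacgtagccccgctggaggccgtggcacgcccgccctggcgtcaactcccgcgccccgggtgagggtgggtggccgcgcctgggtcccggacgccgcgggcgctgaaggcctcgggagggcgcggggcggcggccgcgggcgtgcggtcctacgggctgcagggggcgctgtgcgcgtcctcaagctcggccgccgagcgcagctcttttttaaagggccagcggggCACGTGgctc
ZNF296, chr19:45076479-45076728, minus strand, CACGTG at -30 to -25: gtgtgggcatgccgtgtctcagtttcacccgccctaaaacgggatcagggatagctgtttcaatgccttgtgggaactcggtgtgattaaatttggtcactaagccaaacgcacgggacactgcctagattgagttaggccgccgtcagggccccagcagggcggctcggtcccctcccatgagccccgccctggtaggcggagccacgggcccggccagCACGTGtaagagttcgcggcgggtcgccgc
ZNF121, chr19:9584505-9584754, minus strand, ACTACAA at -135 to -129 and AAGATGG reversed at -31 to -25: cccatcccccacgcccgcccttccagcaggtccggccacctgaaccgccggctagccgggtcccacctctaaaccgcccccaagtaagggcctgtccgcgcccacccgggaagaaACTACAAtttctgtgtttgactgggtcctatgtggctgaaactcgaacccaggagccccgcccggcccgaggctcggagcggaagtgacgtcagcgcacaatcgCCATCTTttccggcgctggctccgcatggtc
ZNF689, chr16:30610434-30610683, minus strand, ACTACAA reversed at -128 to -122: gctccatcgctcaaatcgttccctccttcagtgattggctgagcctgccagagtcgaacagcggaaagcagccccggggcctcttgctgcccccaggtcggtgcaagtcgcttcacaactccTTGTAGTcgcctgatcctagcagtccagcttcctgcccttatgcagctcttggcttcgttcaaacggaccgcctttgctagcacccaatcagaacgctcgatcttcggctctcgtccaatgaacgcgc
ZNF239, chr10:43574617-43574866, minus strand, AAGATGG at -100 to -94: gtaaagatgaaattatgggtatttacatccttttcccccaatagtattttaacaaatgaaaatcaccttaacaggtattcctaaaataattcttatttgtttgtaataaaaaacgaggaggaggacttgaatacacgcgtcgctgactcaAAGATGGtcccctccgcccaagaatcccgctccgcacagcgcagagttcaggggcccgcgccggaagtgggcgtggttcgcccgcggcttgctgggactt

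Over the whole 300-base windows of the table, which run to 50 bases past the start, ACTACAA was present in 7.37% of member windows, against 2.84% of the windows of all protein-coding genes. AAGATGG was in 8.07% of member windows, against 6.04%, and CACGTG in 7.02%, against 8.34%. Among members that fell with FB23-2 the shares were 12 of 118 windows for ACTACAA, 12 of 118 for AAGATGG and 11 of 118 for CACGTG. Among members that rose they were 8, 6 and 7 of 106 windows in the same order. A match to these letters is a description of the window and not a bound site, and some genes have several windows. ZNF143 itself, the activator that binds the first of these sequences, had 20.7, 20.3 and 22.2 CPM in FB23-2 libraries, 19.7, 23.2 and 22.4 CPM in FB23 libraries and 20.9, 23.2 and 22.9 CPM in DMSO libraries, which overlap.

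FB23 against DMSO moved few members and by small steps. The edgeR test called 18 members higher and 29 lower, where 12.3% of all tested genes were higher and 11.2% lower, and no member reached 1 on the log2 scale, which 0.763% of all tested genes did upward and 0.397% downward. Among tested genes at 3 TPM or more 13.45% were called higher and 13.61% lower. Groups did not overlap for 79 members, beside 37.9% of all tested genes. The count rested in part on single libraries: it was 24 of 259 without DMSO library 1, 26 without FB23 library 2 and 30 without DMSO library 3. When each of the 6 libraries was left out in turn, 7 of the higher and 12 of the lower members were called every time. With trends on GC content and transcript length removed per library, 18 members were higher and 50 lower.

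Among the 19 that kept their call in every leave-out, ZNF837 had the largest rise, 0.82 ± 0.13 on the log2 scale (adjusted p 0.00026). ZNF467, a regulator of fat and bone cell fate in mouse, had the largest fall, with 3.28, 3.395 and 4.96 CPM in FB23 libraries, against 6.65, 6.73 and 6.79 CPM in DMSO libraries. Its log2 fold change was -0.74 ± 0.16 (adjusted p 0.0025). ZNF692 had 64.0, 64.8 and 59.8 CPM in FB23 libraries, against 77.0, 80.9 and 79.3 CPM in DMSO libraries, and ZNF384, a fusion partner in acute lymphoblastic leukaemia, had 41.8, 42.7 and 41.5 CPM, against 50.8, 55.4 and 51.6 CPM. The groups did not overlap for either gene. ZNF783 fell by 0.34, ZNF639 by 0.36, ZNF689 by 0.35 and ZNF593 by 0.29 on the log2 scale with FB23, and ZNF160 rose by 0.31. ZNF76, a paralogue of ZNF143 and like it an activator, rose by 0.35 ± 0.06 with FB23 and by 0.77 ± 0.06 with FB23-2.

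Set side by side, 16 members were called higher in both comparisons with DMSO, 23 were called lower in both, and 4 were called in opposite directions. A further 162 were called with FB23-2 and missed the threshold with FB23, 4 the other way round, and 50 were called with neither; a missed threshold does not show that a member differed between the compounds. Both comparisons use the same DMSO libraries, so these counts carry no independent support for each other. Of all tested genes 82.6% were called with FB23-2 and 23.5% with FB23. The overlap over all tested genes was not counted, so these counts are no result about the members. The 4 with opposite calls were ZNF236, ZNF217, ZNF521 and ZNF771. ZNF771 had 11.5, 11.4 and 10.4 CPM in FB23-2 libraries, 20.2, 19.4 and 24.6 CPM in FB23 libraries and 17.1, 14.98 and 16.2 CPM in DMSO libraries, so that the DMSO values lay between the compounds. ZNF217, a partner of CtBP and CoREST complexes and an amplified gene in breast cancer, had 83.1, 85.3 and 87.6 CPM with FB23-2, 68.8, 65.9 and 62.0 CPM with FB23 and 74.9, 77.1 and 74.3 CPM with DMSO. ZNF236, with 30 fingers, averaged 33.1 ± 0.64 CPM with FB23-2, 17.9 ± 1.39 CPM with FB23 and 22.3 ± 1.90 CPM with DMSO (SD, n = 3 each). Its FB23 call was lost without DMSO library 3 (-0.24) or FB23 library 2 (-0.25). The calls of ZNF521, a factor of blood progenitors, were weak: its log2 fold change was 0.14 with FB23-2 and -0.17 with FB23, and the FB23 value was no longer called in 5 of the 6 leave-outs, at -0.14 without FB23 library 1, -0.17 without FB23 library 2, and -0.17, -0.16 and -0.18 without DMSO libraries 1, 2 and 3. Its FB23-2 call was lost at 0.11 without FB23-2 library 2 and at 0.13, 0.14 and 0.12 without DMSO libraries 1, 2 and 3.

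The direct comparison sets FB23-2 against FB23, and neither group mean holds a library that chose the members. The DMSO libraries still entered the filter, the scaling and the shared estimate of spread. The edgeR test called 103 members higher and 96 lower with FB23-2, 199 of 259, where 81.5% of all tested genes were called (40.4% higher and 41.1% lower). Groups did not overlap for 194 members, beside 81.2% of all tested genes. By at least 1 on the log2 scale 12 were higher and 21 lower, or 4.63% and 8.11% of members, against 8.37% and 16.94% of tested genes at 3 TPM or more and 18.1% and 14.1% of all tested genes. Counting calls of any size, 32.63% of tested genes at 3 TPM or more were higher and 51.27% lower. Upper-quartile factors gave a split of 131 higher and 79 lower, and limma on log2(TPM + 1) gave 134 and 70. The largest falls were those of ZNF607 (-2.61 ± 0.10, adjusted p 9.8e-14), ZNF485 (-2.40 ± 0.16), ZNF239 (-2.25 ± 0.11) and ZNF783 (-1.995 ± 0.08). The largest rises were those of ZNF117 (2.07 ± 0.08), ZNF160 (1.47 ± 0.07), ZNF600 (1.38 ± 0.09) and ZNF548 (1.37 ± 0.08), followed by ZNF311 (1.30 ± 0.12). ZNF467 stood at 7.53, 8.65 and 7.23 CPM in FB23-2 libraries, against 3.28, 3.395 and 4.96 CPM in FB23 libraries, a log2 difference of 0.96 ± 0.15 (adjusted p 1.4e-05).

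Other members did not differ detectably between the compounds. ZNF384 differed by 0.04 on the log2 scale with a 95% interval of -0.10 to 0.18, and ZNF143 by -0.07 with an interval of -0.23 to 0.09. A total of 40 members were called in none of the 3 comparisons. The compounds are compared at 48 h only, and since the labels give no doses, the values do not compare them at matched exposure.

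Level in DMSO libraries went with direction under FB23-2, in the members as in all genes. Of the 62 members at 3 to 5 TPM, 37 were higher and 7 lower with FB23-2 than with DMSO, with a median log2 fold change of 0.41. Of the 52 members at 20 TPM or more, 6 were higher and 40 lower, with a median of -0.57. The 66 members at 5 to 10 TPM and the 79 at 10 to 20 TPM were evenly split, at 24 and 24 and at 35 and 32. All tested genes at 3 to 5 TPM had a median of 0.42 and those at 20 TPM or more one of -0.48, near the members' medians. The called shares were less alike. At 3 to 5 TPM 59.68% of members were higher and 11.29% lower, against 56.47% and 21.51% of all tested genes. At 20 TPM or more the shares were 11.54% and 76.92%, against 22.02% and 66.69%. At 5 to 10 TPM the members' median of -0.01 stood beside 0.21 for all tested genes. There 36.36% of members were higher and 36.36% lower, against 50.12% and 30.16%. These differences were not tested. Against FB23, which had no part in the binning, the medians of the lowest and highest bins were 0.42 and -0.51 for members and 0.36 and -0.45 for all tested genes. The sign of the lowest and highest bin was the same under each scaling tried. Below the threshold, 121 ZNF genes were tested, with 65 higher and 14 lower with FB23-2 than with DMSO. These are 53.72% and 11.57%, with a median of 0.59, beside 64.08% and 11.34% of all tested genes under 3 TPM, whose median was 1.07. All 380 tested ZNF genes without a threshold gave 167 higher and 117 lower.

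**Figure D3:**
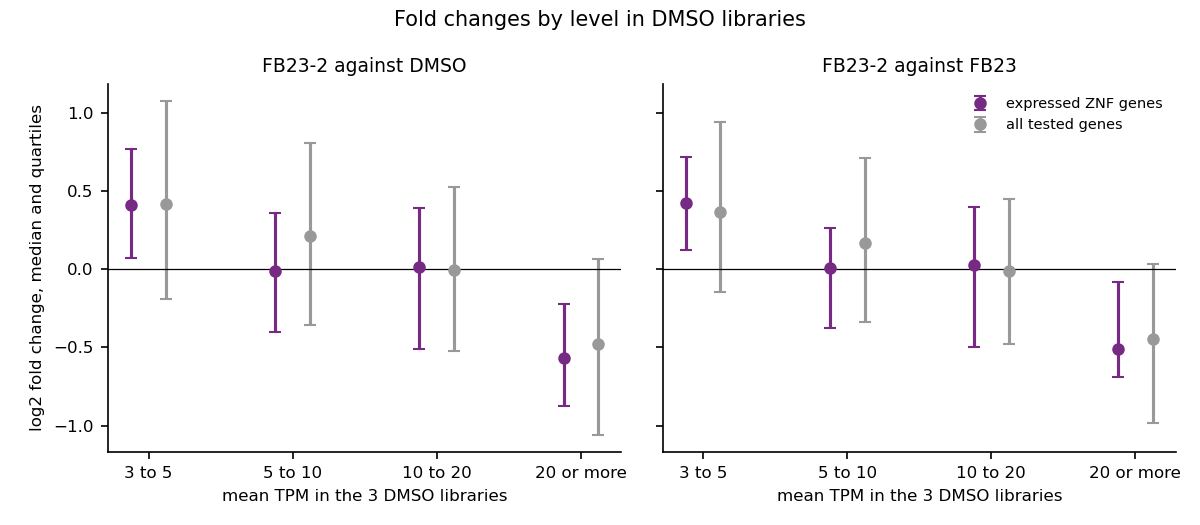
Points are medians and bars the quartiles of the log2 fold change in 4 bins of mean TPM in DMSO libraries, for expressed ZNF genes and for all tested genes. Medians run from 0.41 in the lowest bin to -0.57 in the highest for ZNF genes in FB23-2 against DMSO. Those of all tested genes run from 0.42 to -0.48. At 5 to 10 TPM the medians were -0.01 for ZNF genes and 0.21 for all tested genes.

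Of the 13 members that act on RNA, ribosomes or translation, 8 fell and 2 rose in FB23-2 against DMSO, and the same counts held against FB23, with medians of -0.40 and -0.38. They are also the best expressed of the role lists, with a median of 40.2 TPM in DMSO libraries. The 61.54% that fell and 15.38% that rose lie near the shares of all tested genes at 20 TPM or more, of which 66.69% fell and 22.02% rose against DMSO with a median of -0.48, so the count is no result about the list. ZNF593 had 20.5, 21.2 and 18.4 CPM in FB23-2 libraries, 46.0, 52.8 and 59.4 CPM in FB23 libraries and 67.8, 65.4 and 63.3 CPM in DMSO libraries. The 3 groups did not overlap, and the log2 fold change with FB23-2 was -1.70 ± 0.08 (adjusted p 2.3e-12). ZNF598, the ubiquitin ligase that marks collided ribosomes, had 84.7, 86.6 and 86.2 CPM in FB23-2 libraries, 171.3, 177.3 and 199.0 CPM in FB23 libraries and 186.7, 181.2 and 190.8 CPM in DMSO libraries. FB23 and DMSO values of ZNF598 overlapped, and the log2 fold change with FB23-2 was -1.12 ± 0.05 against DMSO and -1.09 ± 0.05 against FB23.

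ZNF330, a nucleolar protein, fell by 1.2045 ± 0.06 with FB23-2, and ZNF622, the counterpart of the yeast large-subunit maturation factor Rei1, fell by 0.88 ± 0.06. ZNF830 fell by 0.77 ± 0.07 and ZNF207 by 0.60 ± 0.04. ZNF326, a part of the DBIRD complex that links transcription and splicing, fell by 0.40 and ZNF106 by 0.35. The 2 that rose were ZNF277, which binds the ribosomal protein RPS2, at 27.2 ± 4.13 CPM with FB23-2, against 14.97 ± 1.45 CPM with DMSO, and ZNF385A, which binds mRNA and p53, at 102.6 ± 1.96 CPM, against 75.8 ± 5.42 CPM (SD, n = 3 each). ZNF638, ZNF706 and ZNF346 were not called. The log2 fold change of ZNF638, -0.01 with TMM, became 0.16 with upper-quartile factors and 0.24 with limma on log2(TPM + 1), and that of ZNF706, -0.04, became 0.19 on that last scale. With FB23 3 of the 13 were lower: ZNF593, and ZNF622 (-0.17) and ZNF830 (-0.20), whose calls were lost without single libraries. ZNF622 was not called without DMSO library 1 (-0.15) or 2 (-0.15) or FB23 library 1 (-0.15) or 2 (-0.15), and ZNF830 was not called without DMSO library 1 (-0.23) or 3 (-0.14) or FB23 library 1 (-0.20) or 2 (-0.16).

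**Figure D4:**
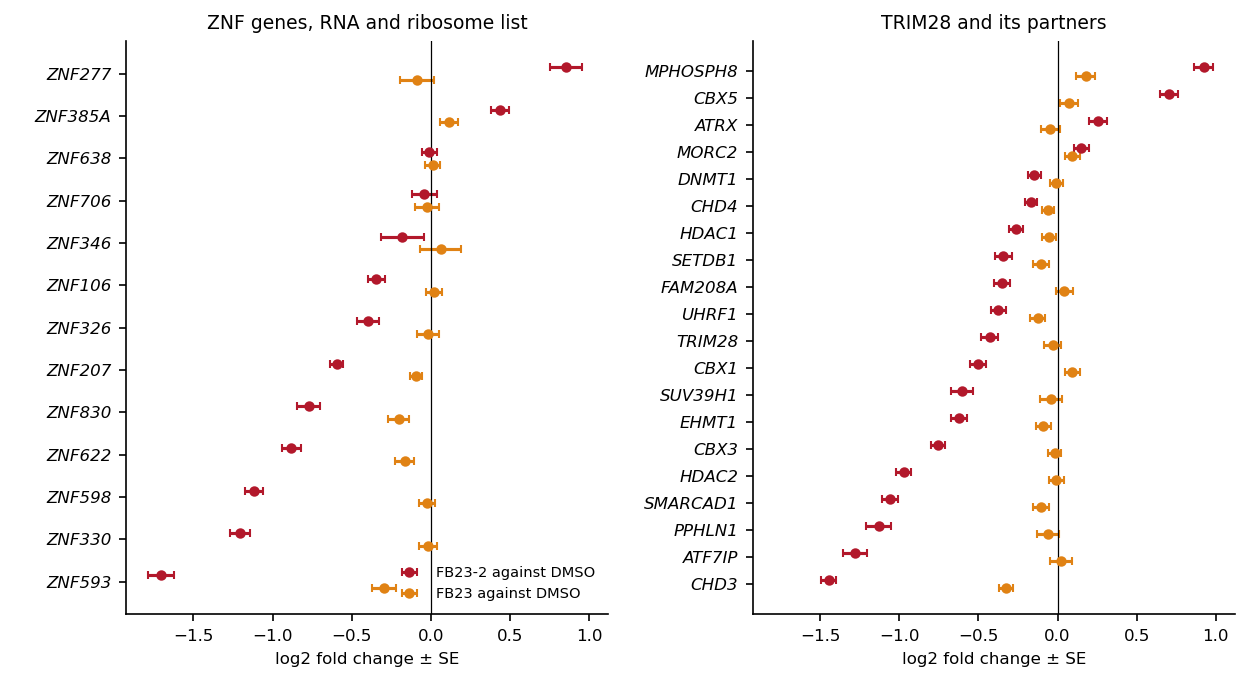
Points are log2 fold changes against DMSO with bars of 1 SE, for FB23-2 and FB23, in the 13 expressed ZNF genes that act on RNA or ribosomes (left) and in TRIM28 and its partners (right). ZNF593 and CHD3 are lowest with FB23-2 in their panels, at -1.70 and -1.45.

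Of 19 members that are chromatin cofactors or sequence-specific activators, 4 rose and 11 fell with FB23-2 against DMSO, with a median of -0.29, and the same counts were found against FB23. Their 57.89% lower and 21.05% higher stand between the shares of tested genes at 3 TPM or more and at 20 TPM or more in the lower direction, and their median level was 19.5 TPM. ZNF687, a partner of ZNF592 in the ZMYND8 complex, rose by 0.68 ± 0.06, with 74.5, 74.1 and 71.5 CPM in FB23-2 libraries, against 48.4, 43.6 and 45.9 CPM in DMSO libraries. ZNF592 fell by 0.24 ± 0.05, a value that became 0.01 with limma on log2(TPM + 1). The stem cell regulator ZNF281 fell by 0.61, ZNF609 by 0.56 and ZNF512B by 0.69. Of the 8 members tied to blood, leukaemia or the cell cycle, 4 rose and 3 fell. ZNF367, a gene of the cell cycle, rose by 0.51 ± 0.06, ZNF668 fell by 0.84 ± 0.10 and ZNF695 by 0.64 ± 0.16, and ZNF395, which shares sequence with FBXO16, rose by 0.17. The call of ZNF395 was lost without FB23-2 library 2 (0.11) and without DMSO library 1 (0.15), 2 (0.14) or 3 (0.18), and its value turned to -0.06 with GC and length trends removed.

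Among 9 expressed KRAB genes tied to repeats and heterochromatin, 4 rose and 3 fell with FB23-2 against DMSO, or 44.44% and 33.33%. Their median level was 9.21 TPM, and all tested genes at 5 to 10 TPM had 50.12% higher and 30.16% lower. The count is no result about a list of this size. ZNF274, which brings SETDB1 to the ends of other ZNF genes, had 54.1, 52.0 and 52.4 CPM in FB23-2 libraries, 33.0, 35.7 and 37.9 CPM in FB23 libraries and 32.9, 36.4 and 33.4 CPM in DMSO libraries. Its rise was 0.63 ± 0.06, and FB23 and DMSO values overlapped. ZNF10, the source of the KRAB domain used in many engineered repressors, rose by 0.82 ± 0.09, while ZNF689 fell by 1.92 and ZNF586 by 1.11.

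Of 22 listed genes for TRIM28 and its silencing partners 20 were analysed here, and in FB23-2 against DMSO 16 of them fell and 4 rose, with a median of -0.40. Their median level was 33.0 TPM in DMSO libraries, and all tested genes at 20 TPM or more had a median of -0.48, with 66.69% lower, so the list fell no further at its median than genes of that level. TRIM28 itself averaged 814 CPM with FB23-2, 1072 CPM with FB23 and 1096 CPM with DMSO, a log2 fold change of -0.43 ± 0.05 for FB23-2. SETDB1 fell by 0.34 and its cofactor ATF7IP by 1.28, and CHD3, a remodeller bound by TRIM28, by 1.45. Of the HUSH complex, PPHLN1 fell by 1.13 and FAM208A by 0.35, while MPHOSPH8 rose by 0.92. The heterochromatin proteins were split: CBX5 rose by 0.70, CBX3 fell by 0.75 and CBX1 by 0.50. With FB23 2 of the 20 were called, CHD3 (-0.33) and MPHOSPH8 (0.18).

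Members with and without a match to the KRAB pattern differed in their balance under FB23-2, as did their levels in DMSO libraries. A missed pattern does not show that the box is absent, so the class without a match can hold KRAB genes. With the strict pattern, 47 of the 108 KRAB members were higher and 34 lower in FB23-2 against DMSO (median 0.12), and of the 151 others 55 were higher and 69 lower (median -0.09). Against FB23 the counts were 51 and 28 for KRAB members and 52 and 68 for the others. The looser pattern gave 54 and 44 of 127, and 48 and 59 of 132, against DMSO. Upper-quartile factors moved the medians to 0.29 for KRAB members and 0.08 for the others, which turned the sign of the second. KRAB members had a median of 7.59 TPM in DMSO libraries and the others 12.2 TPM. With the strict pattern 43.52% of KRAB members were higher and 31.48% lower in FB23-2 against DMSO. All tested genes at 5 to 10 TPM had 50.12% and 30.16%. The others had 36.42% and 45.7%, beside 40.9% and 41.42% of all tested genes at 10 to 20 TPM. Against FB23 the shares of all tested genes were 48.01% and 29.98% at 5 to 10 TPM, and 39.76% and 41.89% at 10 to 20 TPM. No test was made between the classes.

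The number of fingers went with direction and with level in the same way. Of 60 members with 0 to 5 fingers, 15 were higher and 35 lower with FB23-2 than with DMSO (median -0.34). Of 83 members with 6 to 10 fingers 33 were higher and 38 lower, of 74 with 11 to 15 fingers 30 were higher and 18 lower, and of 42 with 16 or more 24 were higher and 12 lower (median 0.28). Against FB23 the lowest class had 14 higher and 34 lower and the highest class 25 higher and 11 lower. Median levels in DMSO libraries fell across these 4 classes from low to high finger number, at 17.9, 11.2, 7.09 and 6.32 TPM, and the part of level in the order was not tested. The sign of the lowest and of the highest class was the same under each scaling tried.

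By position, members whose starts lay within 500000 bases of the next made 23 groups of at least 3, with 150 members in them. This grouping and the groups named were chosen after values had been seen. Of all tested genes 41.3% were called higher and 41.3% lower with FB23-2 than with DMSO, and 40.4% and 41.1% than with FB23. Against DMSO these shares were 50.12% and 30.16% at 5 to 10 TPM, and 40.90% and 41.42% at 10 to 20 TPM. Counts in the groups below and in the next paragraph describe them, and whether neighbours moved together was not tested. The 3 on chromosome 10 (chr10:43556344-43648881, GRCh38.p14) all fell with FB23-2, by 1.38 to 2.45 on the log2 scale. A group of 19 on chromosome 19 (chr19:51571283-53458261) had 13 members higher and 3 lower with FB23-2 than with DMSO, with a median of 0.39, and 14 higher and 2 lower than with FB23. ZNF160 (1.78), ZNF600 (1.25) and ZNF83 (1.18) led its rises, and ZNF480 fell by 1.43 and ZNF614 by 0.87 within the same group. ZNF83 had 85.2, 74.5 and 90.3 CPM in FB23-2 libraries, 39.2, 39.6 and 33.4 CPM in FB23 libraries and 36.2, 38.5 and 35.3 CPM in DMSO libraries. With FB23 1 of the 19 was called, ZNF160.

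**Figure D5:**
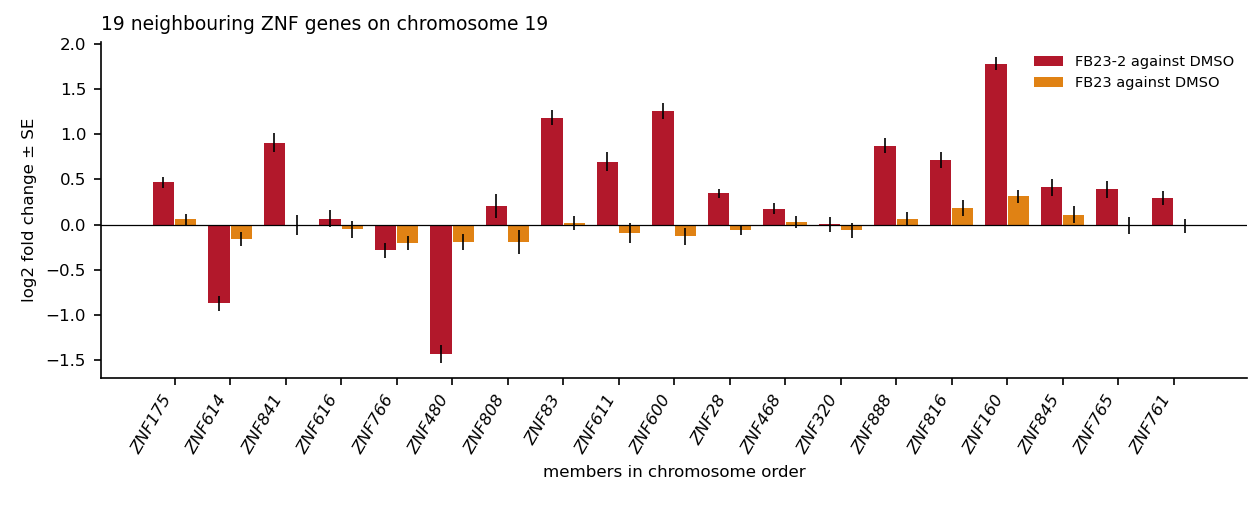
Bars are log2 fold changes against DMSO with 1 SE, for FB23-2 and FB23, in 19 neighbouring expressed ZNF genes of chromosome 19 in their order along it. With FB23-2 13 of the 19 were called higher and 3 lower, and ZNF160 was the highest at 1.78.

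Other groups went one way or were mixed. Of 8 members on chromosome 7 (chr7:149069641-149776530), 6 fell and none rose with FB23-2 against DMSO, led by ZNF783 and by ZNF777 at -1.35, and with upper-quartile factors 4 fell and 1 rose. Of 5 members at the end of chromosome 12 (chr12:132986367-133214832), which include ZNF10, 4 rose and none fell, with a median of 0.73. Of 7 members in chr19:11483429-12633834, 5 rose and none fell. The largest group, 20 members in chr19:57351271-58475436, held 8 that rose and 10 that fell, from ZNF837 at 2.00 to a lowest value of -1.42. Chromosome 19 as a whole had 41 members higher and 37 lower with FB23-2 than with DMSO, and the other chromosomes 61 and 66.

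Related zinc-finger families at the same threshold varied. Among all tested genes at 3 TPM or more 33.95% were higher and 50.99% lower with FB23-2 than with DMSO. The shares were 32.63% and 51.27% for FB23-2 against FB23, and 13.45% and 13.61% for FB23 against DMSO. All 5 ZKSCAN genes, which join a SCAN and a KRAB domain, were higher with FB23-2 than with DMSO and than with FB23, with medians of 0.50 and 0.53. Of 29 ZBTB genes 14 were higher and 13 lower with FB23-2 than with DMSO, and with FB23 1 was higher and 8 were lower. Of 11 ZSCAN genes 3 were higher and 4 lower with FB23-2, and of 8 ZFP genes 1 was higher and 3 were lower. These families are small and no test was made between them and the ZNF members.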

How the data were processed

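RNA was poly(A)-selected and made into directional NEBNext libraries, per the labels' protocols. The deposited tables give for each library the expected count of each gene, estimated with RSEM 1.2.31 on GRCh38 per the submitters' processing notes. TPM and FPKM were computed by the authors, per the file headers; FPKM was not used here. The deposited length and effective length columns (other values, in bases) are the same in every library for each gene, with 1 transcript per gene, so isoforms cannot be followed. The sources used here do not give the aligner, annotation release or strand setting, so reads of genes with antisense partners (ZNF32 among them) could not be told apart with certainty.

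Rounded expected counts entered edgeR 4.0.16 (R 4.3.3): filterByExpr (minimum count 10, total 15), TMM factors, 1 mean per group over all 9 libraries, quasi-likelihood F tests, two-sided, Benjamini-Hochberg adjustment over 13365 genes, calls at an adjusted p under 0.05. CPM use TMM factors. Standard errors come from the F statistic, and 95% intervals span 2.113 of them on either side. DESeq2 1.42.0, limma 3.58.1 (voom; log2(TPM + 1) with a pseudocount of 1), other scalings, filters, member thresholds and left-out libraries were alternatives. The fits were tested on simulated data.

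The members, gene lists and tests were chosen with earlier results of these data known. The genes named are the 10 most abundant members, the 8 largest rises and falls per comparison among called members whose groups did not overlap (log2 CPM averaging 1 or more), members with opposite calls, those at the threshold, and members of the role lists; not all are described. ZNF32 and the genes named by position lie outside this rule and were chosen after their values were seen. Fingers and KRAB boxes were searched in translated GENCODE v29 coding sequences, since no RefSeq protein table was used here; the looser KRAB pattern, level bins and position groups were added after seeing the data. Of 62 other ZNF rows, 56 were left out for their symbols and 6 as pseudogenes. Replicate libraries differed by more than sampling noise, with a chi-square per degree of freedom of 2.27 to 9.63 over genes. Deviations of same-numbered libraries correlated weakly, at -0.18 to 0.09, and the main fit did not pair libraries by number. With 3 libraries per group this cannot exclude a shared culture or day. Intervals cover counting and library spread only.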

Additional observations from a re-analysis of the deposited data

How the results depend on the processing

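Over 20 alternatives, of which each left-out library bears on 2 of the 3 comparisons, 3883 of 4131 recomputed log2 fold changes of the named members kept their direction and their side of the threshold, 172 lost their call, 56 gained one and 20 turned. Those that turned lay between -0.24 and 0.17 as reported. Those against DMSO with FB23-2 were ZNF638 (0.16 with upper-quartile factors, 0.14 with library totals, 0.24 with limma on log2(TPM + 1), 0.22 with GC and length trends removed), ZNF706 (0.19 with limma on TPM, 0.19 with trends removed), ZNF587 (0.0235 with limma on TPM), ZNF592 (0.008 with limma on TPM), ZNF395 (-0.0574 with trends removed) and ZNF768 (-0.23 with trends removed). Those of FB23-2 against FB23 were ZNF638 (0.15 with upper-quartile factors, 0.21 with limma on TPM, 0.215 with trends removed), ZNF706 (0.21 with limma on TPM, 0.21 with trends removed), ZNF410 (0.0216 with upper-quartile factors, 0.0799 with limma on TPM, 0.0508 with trends removed), ZNF592 (0.041 with limma on TPM) and ZNF768 (-0.22 with trends removed). Removing the GC and length trends was chosen after seeing the data, and the cause of these turns was not tested. Counts for FB23 against DMSO were the least stable: 47 members called became 27 with limma on TPM (11 higher, 16 lower), and 50 were lower with trends removed. At 10 TPM or more 31 were called (9 higher), but of a smaller set, so this count does not bear on stability. Of the 79 members at 10 to 20 TPM 15.19% were called, and of the 52 at 20 TPM or more 36.54%, beside 18.15% of all members. Leaving out 1 library at a time gave 24 to 48 called, 8 to 18 higher and 16 to 30 lower; the count was 24 without DMSO library 1, 26 without FB23 library 2 and 30 without DMSO library 3. A threshold of 10 TPM, which leaves fewer members, gave 113 called with FB23-2 against DMSO (41 higher) and 105 against FB23 (39 higher); no threshold gave 167 and 170 higher. With the replicate number as a block, 199 members were called for FB23-2 and 36 for FB23 relative to DMSO, and 195 between the compounds. Deviations of same-numbered libraries correlated at -0.18 to 0.09, and the labels tie the numbers to no shared culture or day. The FB23 libraries differ 3.11-fold in total count. Precision went with level: the median standard error of a log2 fold change for FB23-2 against DMSO was 0.109 for members at 3 to 5 TPM and 0.0614 for those at 20 TPM or more, and over all members it was 0.0853, against 0.0837 for FB23.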
